A study of Mus musculus with 4 samples.

Results

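RNA from epididymal white fat, the fat depot beside the testis of male mice, was compared between animals given CL 316243 for 6 days and control animals. CL 316243 activates the β3-adrenergic receptor, the main adrenergic receptor of mouse fat cells. It was given at 3 nmol/hr, and both groups were C57 BL6 males of 3 to 4 months. These are 2 of the 4 arrays of a time course whose other arrays hold days 1 and 3 of the same treatment, and every array carries pooled RNA with no replicate. The number of mice in a pool, the route of dosing and what the control mice received were not given in the labels used here. The compound's number is written differently in the titles of 2 treated samples, and the number given in the descriptions of the treated samples is used. The comparison takes in all 12422 probe sets against transcripts among the 12488 on the array, with no selection on their values.

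White fat cells store triglyceride, and β3-adrenergic stimulation raises cyclic AMP, which switches on lipolysis and releases fatty acids. Under lasting stimulation white depots are known to gain cells with features of brown fat, which burn fatty acids in mitochondria and make heat through the uncoupling protein UCP1. The same stimulation is known to bring in macrophages and to make some progenitor cells divide.

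A value below is a probe set intensity, the brightness deposited for a transcript on a linear scale. Changes were computed after intensities below 174, the 40th percentile of all 4 arrays, had been raised to that floor. A change of at least 2-fold after the floor counts here as higher or lower, and "rose" and "fell" are used only for such changes. With 1 array a side there is no test and no p-value, and no difference has a replicate check. Where the dimmer of 2 values was at the floor, the fold is given as "at least". Probe sets of 1 gene, above the floor on both arrays, differed in their log2 change with an error of 0.31 over 818 genes, so that 3 such errors correspond to 1.91-fold. That error covers the measurement and not animals or pools. The arrays had the same distribution of intensities, with medians of 315 to 316 and between 59.8% and 60% of probe sets above the floor.

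After 6 days, 158 probe sets were at least 2-fold higher (1.27% of all) and 146 at least 2-fold lower (1.18%). At 3-fold, 30 were higher and 31 lower, and at 5-fold 11 and 10. By gene, represented by the brightest probe set, 109 of 8251 genes were higher (1.32%) and 102 lower (1.24%). Of the 5925 genes above the floor on at least 1 of the 2 arrays, these are 1.84% and 1.72%, and the median log2 change of those genes was -0.01, with 49.4% above 0 and 50.5% below. Counts of list members are set against these shares. The middle 95% of them lay between log2 changes of -0.92 and 0.92. Other probe sets of the same gene were above the floor for 13 of the 109 higher genes, and for 12 of these they all moved the same way. The corresponding numbers for the lower genes were 18 of 23. Another probe set also passed 2-fold in the same direction for 7 of those 13 higher genes and 10 of those 23 lower genes.

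**Figure D1:**
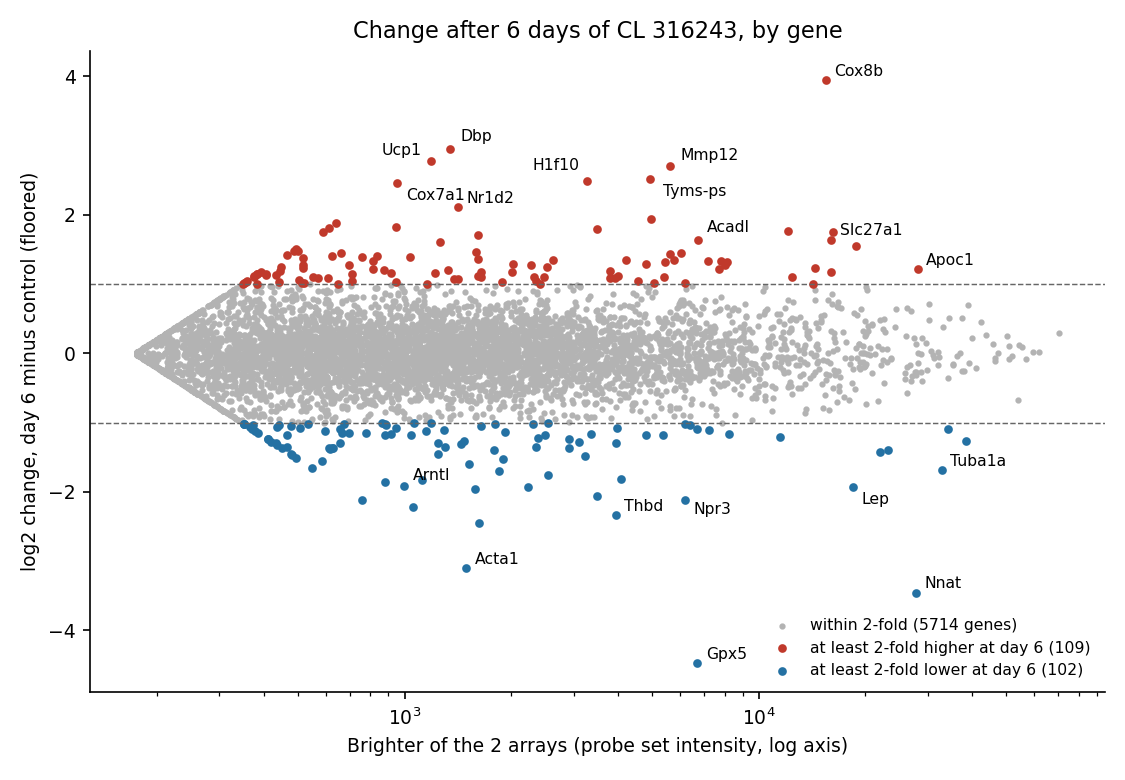
Each point is a gene above the floor on at least 1 of the 2 arrays, at the brighter of its control and day 6 intensities (log axis), with its log2 change on the vertical axis and dashed lines at 2-fold. Red points are the 109 genes at least 2-fold higher and blue points the 102 at least 2-fold lower; Cox8b, at 3.95, and Gpx5, at -4.47, lie farthest from 0.

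The fat cell identity of the samples was as labelled. Adiponectin (Adipoq), the main secreted protein of fat cells, was at 52015 in control and 55270 at day 6, the fatty acid-binding protein gene Fabp4 at 10095 and 10785, and hormone-sensitive lipase (Lipe) at 15651 and 19682. Hemoglobin (Hba-a1), from red blood cells, stood at 46316 and 42958. In pooled tissue, fewer cells of a type and less RNA per cell cannot be told apart. The clearest sign of a neighbouring organ was the list of epididymis, testis and germ cell genes, whose summed intensity was 15117 in control, 10664 at day 1, 3358 at day 3 and 13449 at day 6. At day 1 most of the sum, 7998, was Star, a cholesterol transporter of steroid-making cells that is also on the cholesterol list. In control and at day 6 that Star probe set read under the floor, while a second one was at 177 and 277.

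Within that list the epididymal genes did not move as a block. Gpx5, a secreted glutathione peroxidase of the epididymis, was the deepest fall in the comparison, from 6708 in control to 302 at day 6, or 22.2-fold, with 179 and 622 on days 1 and 3. A second Gpx5 probe set read 5455 in control and 52 at day 6. Lcn5, a retinoid-binding lipocalin of the epididymis, rose from 3319 to 8028, or 2.42-fold, while days 1 and 3 read 63 and 7. Adam7, an epididymal surface protein, was at 2653 and 1846, with 200 and 251 between them. All 3 were therefore bright in control, Lcn5 and Adam7 were bright again at day 6, and only Gpx5 stayed low. The sperm protamine Prm1 went from an intensity under the floor to 307, and the transition protein Tnp1 was at 1257 and 1709. Of the 20 measured members 12 did not pass the floor on either array, Cyp11a1 and Ddx4 among them. The part of these genes in other changes was not tested.

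Genes of brown and beige fat cells were the group with the highest median over members above the floor. Of 20 members measured, 10 were above the floor and 7 of these rose, against 1.84% of all genes above the floor, with 0 falling and a median log2 change of 1.5. Ucp1 and Cox7a1 passed the floor only at day 6, so the filter itself adds to this count and median. Over all 20 measured members the median was 0. Cox8b, the heart and brown fat form of cytochrome oxidase subunit 8, went from 1001 in control to 15472 at day 6, which is 15.5-fold. On the arrays between them it read 816 and 9548, so the gain lay after day 1. A second Cox8b probe set went from 304 to 3714, or 12.2-fold.

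Ucp1, the heat-producing uncoupling protein, could not be seen above the floor in control and reached 1190 at day 6, which is at least 6.84-fold. It had read 3059 at day 1 and 1501 at day 3, so that the day 6 array was the lowest of the treated ones. A dimmer probe set of Ucp1 was at 41 and 142, below the floor on both. Cidea, which enlarges lipid droplets and marks brown fat, went from 266 to 947, or 3.56-fold, after 178 and 1312 on days 1 and 3. Cox7a1, the muscle and brown fat form of subunit 7a, went from 56 to 954, at least 5.48-fold, after 318 and 966.

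Smaller rises came in genes that act upstream of heat production. Ppara, the nuclear receptor that switches on fatty acid oxidation genes, went from 382 to 877, or 2.30-fold, and was highest at day 6 of the 4 arrays. Dio2, the enzyme that activates thyroid hormone in brown fat, went from 197 to 433, or 2.20-fold, after 724 and 859. Esrra, a nuclear receptor of mitochondrial genes, was at 2016 and 2771, within 2-fold. Ebf2, a transcription factor of brown fat precursors, was at 1145 and 616, with a log2 change of -0.89. Ppargc1a, the coactivator of mitochondrial genes, Elovl3, an elongase of cold-exposed brown fat, and Fabp3 were below the floor on both arrays. Raising the floor to the 60th percentile took the median of this short list to 0.82, and over all 20 measured members it was 0.

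The cytochrome oxidase genes show how narrow the change in subunits was. Of 14 members above the floor, Cox8b and Cox7a1 rose, against 1.84% of all genes above the floor, and 0 fell, with a median of 0.32. The widely expressed partner of Cox7a1, Cox7a2, was at 16228 and 20380, a log2 change of 0.33, and Cox6a1, Cox5b and Cox6c had log2 changes of 0.45, 0.47 and 0.22. Cox4i1 was at 1543 and 3059, just inside 2-fold, with its other probe set at 294 and 321. Cox8a and Cox6a2, further forms of subunits 8 and 6a, and Cox5a were below the floor on both arrays. Cox8c, also a form of subunit 8, was at 1818 and 2250. A reading below the floor does not show that a transcript is absent. Cox8b and Cox7a1 also stand on the brown fat list, so the lists are not separate counts.

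Both genes lie on chromosome 7 of the mouse (GRCm38.p6). The 250 bases before their start sites are shown because these are the 2 cytochrome oxidase genes that rose, written 5′ to 3′ on the gene's strand from RefSeq, chr7:140900447-140900696 on the minus strand for Cox8b and chr7:30183921-30184170 on the plus strand for Cox7a1. No letters are in capitals because none of the motifs searched was found there.
Cox8b: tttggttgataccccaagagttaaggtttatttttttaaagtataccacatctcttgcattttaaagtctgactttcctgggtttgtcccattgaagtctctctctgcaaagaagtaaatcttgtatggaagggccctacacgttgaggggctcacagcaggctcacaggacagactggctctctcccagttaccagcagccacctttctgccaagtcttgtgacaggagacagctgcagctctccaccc
Cox7a1: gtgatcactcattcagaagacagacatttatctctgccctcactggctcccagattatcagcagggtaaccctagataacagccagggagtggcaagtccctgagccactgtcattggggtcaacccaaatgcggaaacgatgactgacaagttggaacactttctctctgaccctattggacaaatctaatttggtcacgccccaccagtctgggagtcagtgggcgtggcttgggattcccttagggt
The motifs searched on both strands were the cyclic AMP response element TGACGTCA, the paired nuclear receptor site (AGGTCA repeated after 1 free base), the estrogen-related receptor site TCAAGGTCA, the E-box CACGTG and the D-box TTATGTAA. The window was 250 bases before to 50 after each start. Among genes at least 2-fold higher, 86 matched the promoter table and 1 held TGACGTCA, against 3.16% of the 6576 measured genes that matched. The paired nuclear receptor site and the estrogen-related receptor site were found in 0 of those 86 and in 0.015% and 0.30% of measured genes. The D-box was found in 2 of those 86, in 1 of the 82 matched genes that fell and in 0.73% of measured genes.

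Fatty acid oxidation genes shifted upward nearly as a whole. Of 23 members above the floor, 22 had a log2 change above 0, against 49.4% of all genes above the floor. Of the 23, 6 rose, against 1.84% of all genes above the floor, and 0 fell, with a median of 0.61. Acadl, the long-chain acyl-CoA dehydrogenase, went from 2163 through 3814 and 6727 to 6739, which is 3.12-fold. Acads, its short-chain relative, went from 2265 to 5754 (2.54-fold), but its other probe set was at 1105 and 1198.

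The rises covered entry as well as the cycle itself. The carnitine carrier Slc25a20 went from 3103 to 7840, or 2.53-fold, and Cpt2, which frees acyl groups from carnitine inside mitochondria, from 6154 to 14412, or 2.34-fold. Etfdh, which passes their electrons to ubiquinone, rose 2.12-fold, and Eci1, which prepares unsaturated chains, 2.01-fold. Cpt1a, the liver form of the entry enzyme, stood apart at 3332 and 2993, although it had read 8326 at day 1. Acadm and Acaa2 had log2 changes of 0.66 and 0.61. Acadvl was below the floor, and Hadha and Cpt1b were not analysed here.

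Fatty acid supply and the peroxisome held other large rises. Slc27a1, a fatty acid transport protein, went from 5120 to 16013, or 3.13-fold, and Fabp5, a binding protein of fat cells and macrophages, from 3261 to 8116, or 2.49-fold. The remaining 11 uptake genes above the floor were within 2-fold, lipoprotein lipase (Lpl) at 41483 and 45781. Of 24 peroxisome genes, 21 had a log2 change above 0, against 49.4% of all genes above the floor, and 2 rose, against 1.84%, with a median of 0.38. Acaa1b, a peroxisomal thiolase, went from 4798 to 16181, or 3.37-fold, after 17865 and 27032 on days 1 and 3. Its paralog Acaa1a was at 7035 and 7874. Ephx2, an epoxide hydrolase, went from 3530 to 12070, or 3.42-fold, with the highest of its 4 values at day 6.

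**Figure D2:**
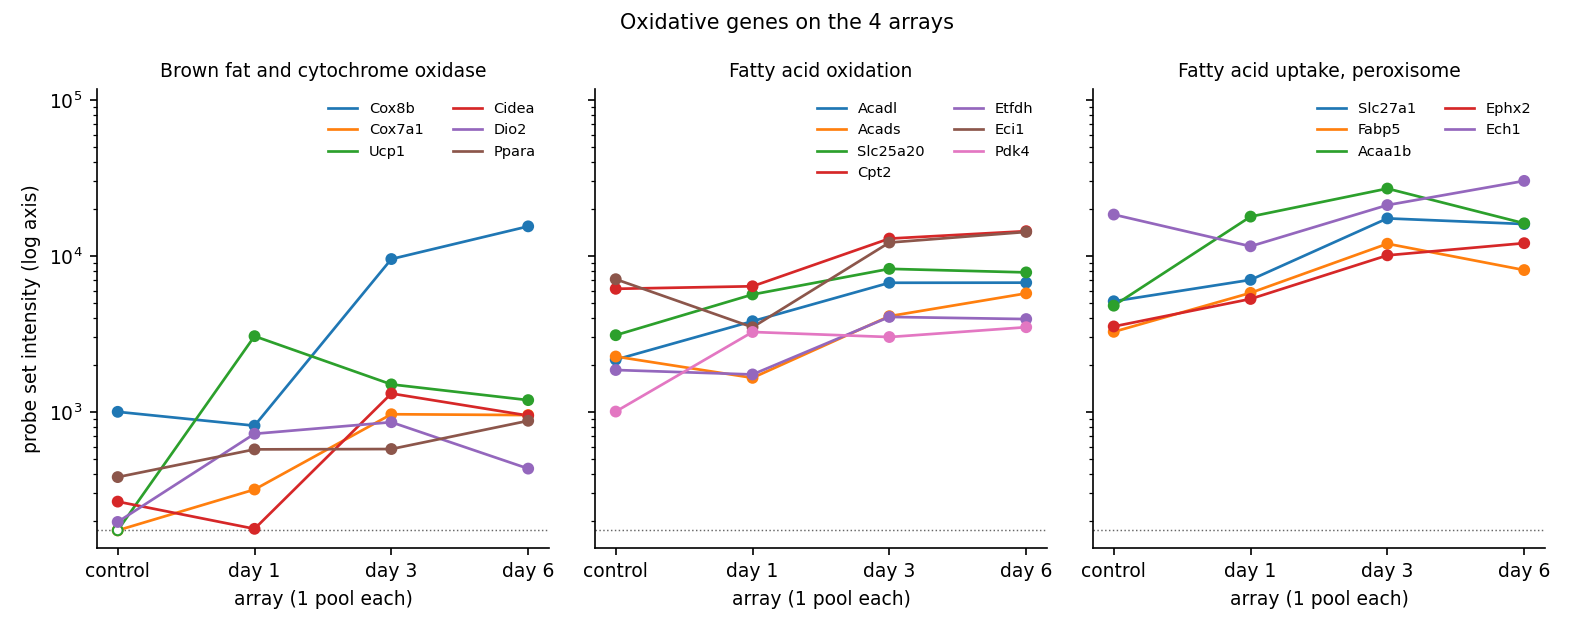
Intensities (log axis) of brown fat, fatty acid oxidation, uptake and peroxisome genes on the 4 arrays, 1 pool each; the dotted line is the floor of 174 and open points, Cox7a1 and Ucp1 in control, are values below it. Cox8b reached 15472 at day 6, while Ucp1 was highest at day 1, at 3059.

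The fuel-handling genes around the mitochondrion followed with smaller steps. Pdk4, which blocks the entry of pyruvate into the citric acid cycle, went from 1005 to 3491, or 3.47-fold, with 3253 and 3020 on days 1 and 3. It was the 1 of 25 citric acid cycle and pyruvate dehydrogenase genes to rise, against 1.84% of all genes above the floor. Of these 25, 22 had a log2 change above 0, against 49.4% of all genes above the floor, with a median of 0.42. Among the others, Dlat, Sdha and Idh3g had log2 changes of 0.97, 0.86 and 0.78, and Pdk3 and Mdh1 were at -0.75 and -0.62. Pdk4 is also on the brown fat and PPAR target lists. In the list of ketone body and branched-chain amino acid breakdown 12 of 13 were above 0, with a median of 0.35. Bcat2, which begins branched-chain amino acid breakdown, was at 3251 and 6224, within 2-fold.

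The respiratory chain moved by less than 2-fold almost throughout. In complexes II and III with cytochrome c, all 13 members above the floor had a log2 change above 0, against 49.4% of all genes. Their median was 0.52, with 0 past 2-fold. Uqcr10, a small subunit of complex III, was the nearest, at 10741 and 20213. In complex I, 25 of 26 were above 0, with a median of 0.31 and 0 past 2-fold. ATP synthase genes had a median of 0.29 and 1 rise of 12, Atp5d, from 2172 to 5420 (2.5-fold). Of its other bright probe sets, one went from 2101 to 4277 and the next from 1586 to 2346. By the brightest probe set of each gene, each single shift is within 3 errors of the measurement, except those of Atp5d, Cox8b, Cox7a1 and Cox4i1. The other Cox4i1 probe set was within them, with a log2 change of 0.13.

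Mitochondrial carriers were mixed. Of 14 above the floor, 3 rose and 0 fell, against 1.84% and 1.72% of all genes above the floor. Those that rose were Slc25a20, the dicarboxylate carrier Slc25a10, from 7099 to 16001 (2.25-fold), and Ucp3, a relative of Ucp1 found in muscle, from 575 to 1323 (2.30-fold). Slc25a4, an ADP/ATP carrier, was at 13091 and 10438. Of 43 genes of mitochondrial biogenesis, import and translation 0 passed 2-fold, the median was 0.12, and the regulator Tfam was below the floor. Chchd10, a small mitochondrial protein on none of the lists, rose from 6391 to 18789, or 2.94-fold, after 26790 and 26203.

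**Figure D3:**
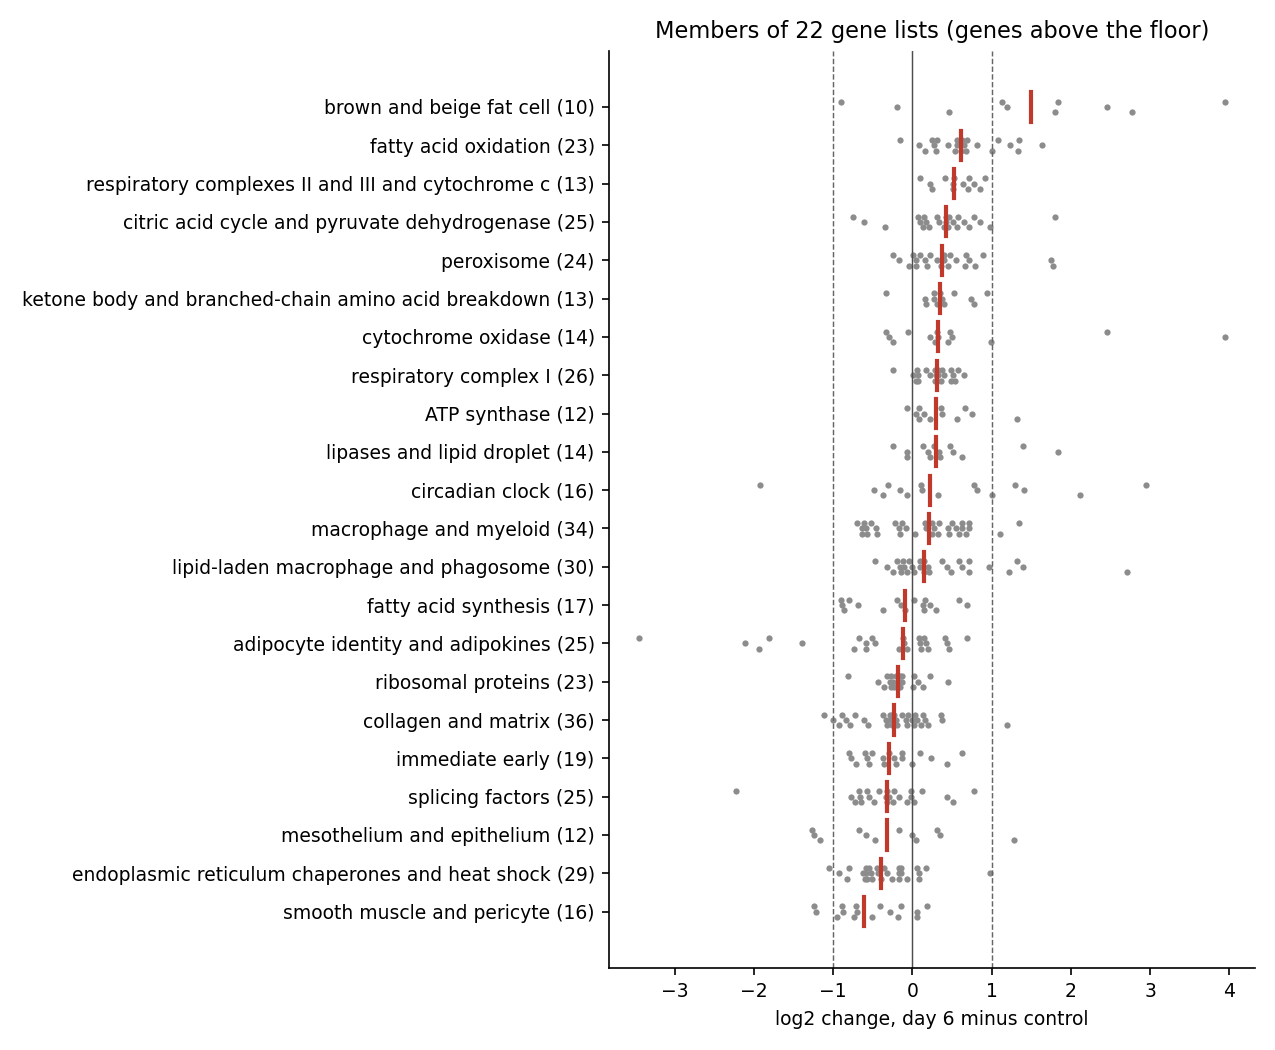
Grey points are the log2 changes at day 6 of the members of 22 gene lists that were above the floor (their number in brackets), red bars are the list medians, and dashed lines mark 2-fold. The brown and beige list has the highest median, 1.5, and the smooth muscle and pericyte list the lowest, -0.60.

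Fat storage genes were close to control. Of 14 lipase and lipid droplet genes, 2 rose, against 1.84% of all genes above the floor, with a median of 0.30. They were Cidea and the lysosomal acid lipase Lipa, from 288 to 760 (2.64-fold). The triglyceride lipase Pnpla2 was at 36491 and 43916, its coactivator Abhd5 at 5404 and 8372, and Mgll, which splits monoglycerides, at 17476 and 19150. In glycerol supply and triglyceride synthesis 0 of 12 passed 2-fold. The largest were Dgat1, which makes triglyceride, at 7671 and 14449, and Pck1, which supplies glycerol backbones, at 8846 and 16101.

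Fatty acid synthesis genes had 0 of 17 past 2-fold and a median of -0.09, but the members spread in both directions. Stearoyl-CoA desaturase Scd1 went from 57016 to 70216, fatty acid synthase (Fasn) stood at 31644 and 32153, and the lipogenic regulator Thrsp at 34346 and 40008. Lower were ATP citrate lyase (Acly), at 13508 and 7440, the desaturase genes Scd2, at 13590 and 7780, and Fads1, at 2825 and 1522, and the acetyl-CoA carboxylase regulator Mid1ip1, at 5049 and 2705. Each of these 4 stayed within 2-fold.

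Cholesterol genes were split, with 10 of 20 above 0, 10 below and a median of 0.01. Of the 20, 1 fell, against 1.72% of all genes above the floor. Sc5d, a sterol desaturase, fell from 2230 to 588, or 3.79-fold, and its other probe set from 1350 to 364. Sqle, Msmo1 and Idi1 had log2 changes of -0.98, -0.96 and -0.94, inside 2-fold. The synthesis enzymes Tm7sf2 and Cyp51 had changes of 0.69 and 0.57, and the cholesterol exporter Abcg1 one of 0.97.

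The fat cell genes that fell were secreted or surface proteins and imprinted genes rather than the differentiation factors. Of 25 identity and adipokine genes above the floor, 5 fell and 0 rose, against 1.72% of all genes lower, with a median of -0.12. Neuronatin (Nnat), an imprinted membrane protein, went from 27843 in control to 2542, or 11.0-fold, after 824 and 516. Mest, another imprinted gene of growing fat cells, fell from 1783 to 677, or 2.63-fold. Npr3, the receptor that clears natriuretic peptides, fell from 6176 to 1432, or 4.31-fold, and its 2 other probe sets fell as well. All 3 were lower on every treated array than in control.

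Leptin (Lep), the hormone of energy stores, fell from 18438 to 4839, or 3.81-fold, after 1608 and 3805, with its other probe set at 10212 and 1412. Lcn2, a lipocalin of the acute phase, fell from 4086 to 1167, or 3.50-fold, after 11038 at day 1, while a dim second probe set was at 277 and 429. Pparg and Cebpa, the factors that drive fat cell differentiation, were at 4872 and 4521 and at 32027 and 28493. Resistin (Retn) stood at 47370 and 51002 and the insulin-responsive glucose transporter Slc2a4 at 4052 and 4553. Cfd and Plin1 were not analysed here.

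Insulin signalling and glycolysis genes were mostly level. Of 22 in the first list, 1 fell, against 1.72% of all genes above the floor. It was the growth factor-binding protein Igfbp3, from 547 to below the floor (at least 3.14-fold). Its relative Igfbp6 was at 7865 and 3939, a hair inside 2-fold. In glycolysis and glycogen 0 of 18 passed 2-fold, with a median of 0.01 and lactate dehydrogenase (Ldha) at 28783 and 28709.

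In β-adrenergic and cyclic AMP signalling 2 of 21 rose, against 1.84% of all genes above the floor, and 0 fell, with a median of -0.17. Rgs2, which damps G protein signals, went from 493 through 632 and 1318 to 1615, or 3.28-fold, and the cyclic AMP phosphodiesterase Pde8a from 256 to 552, or 2.16-fold. The catalytic subunit Prkaca of protein kinase A had a log2 change of 0.64 and the stimulatory G protein Gnas one of -0.25. Immediate early genes had 0 of 19 past 2-fold and 15 below 0, against 50.5% of all genes above the floor. Their median was -0.30, and Dusp1 stood at 5049 and 3953.

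Circadian clock genes were among the largest changes of the comparison. In this clock Arntl and Clock switch on Per and Cry genes and the output factors Dbp and Tef, and Nr1d1 and Nr1d2 repress Arntl. Of 16 members above the floor, 5 rose and 1 fell, against 1.84% and 1.72% of all genes. Dbp went from 161, below the floor, to 1345, at least 7.73-fold, after 1108 and 1462. Nr1d2 went from 326 to 1414, or 4.34-fold, and Nr1d1 from 824 to 2026, or 2.46-fold. On every treated array these 3 genes were above control.

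Per1, a repressor arm gene, went from 315 to 835, or 2.65-fold, after 1090 and 549, and Tef from 1200 to 2411, or 2.01-fold. Arntl moved opposite to them, from 998 in control to 264, or 3.78-fold lower, after 167 and 265. Rora and Per3 had log2 changes of 0.82 and 0.78, and Clock, Cry2 and Cry1 had -0.48, -0.36 and -0.31. Per2 passed the floor only at day 6 of these 2 arrays, at 217. The list's median, 0.22, hides these opposed changes, and lowering the floor to the 25th percentile made it 0.45. The hour at which each pool was collected was not given in the sources used here, so treatment and time of day cannot be told apart for these genes.

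The CACGTG E-box, the site through which Arntl and Clock act, was found in the promoter windows of 3 of the 14 clock genes that matched the promoter table, and in 11.5% of measured genes. Of all 32851 promoters 7.15% held it. It was found in 7 of the 86 matched genes that rose (8.14%) and in 13 of the 82 that fell (15.9%). The 250 bases before the first listed start sites of Per1 and Tef are shown because both genes rose and hold it, with the E-box in capitals, from RefSeq (GRCm38.p6), chr11:69098699-69098948 and chr15:81802423-81802672, both on the plus strand.
Per1: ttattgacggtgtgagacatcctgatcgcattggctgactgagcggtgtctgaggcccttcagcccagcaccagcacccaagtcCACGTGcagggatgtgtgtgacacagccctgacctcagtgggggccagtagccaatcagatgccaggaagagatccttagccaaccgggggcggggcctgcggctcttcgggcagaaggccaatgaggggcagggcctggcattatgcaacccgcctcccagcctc
Tef: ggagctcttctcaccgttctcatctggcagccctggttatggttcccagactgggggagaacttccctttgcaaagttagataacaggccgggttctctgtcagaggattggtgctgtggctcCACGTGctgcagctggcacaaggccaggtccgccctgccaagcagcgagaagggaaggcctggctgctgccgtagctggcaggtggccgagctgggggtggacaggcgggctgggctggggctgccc
In Per1 the motif begins 166 bases before the start site and in Tef 127. At the second listed start site of each gene, Per1 held no E-box and Tef held it 138 bases before the start. Promoters of Dbp, Nr1d1, Nr1d2 and Arntl held no CACGTG in this window.

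**Figure D4:**
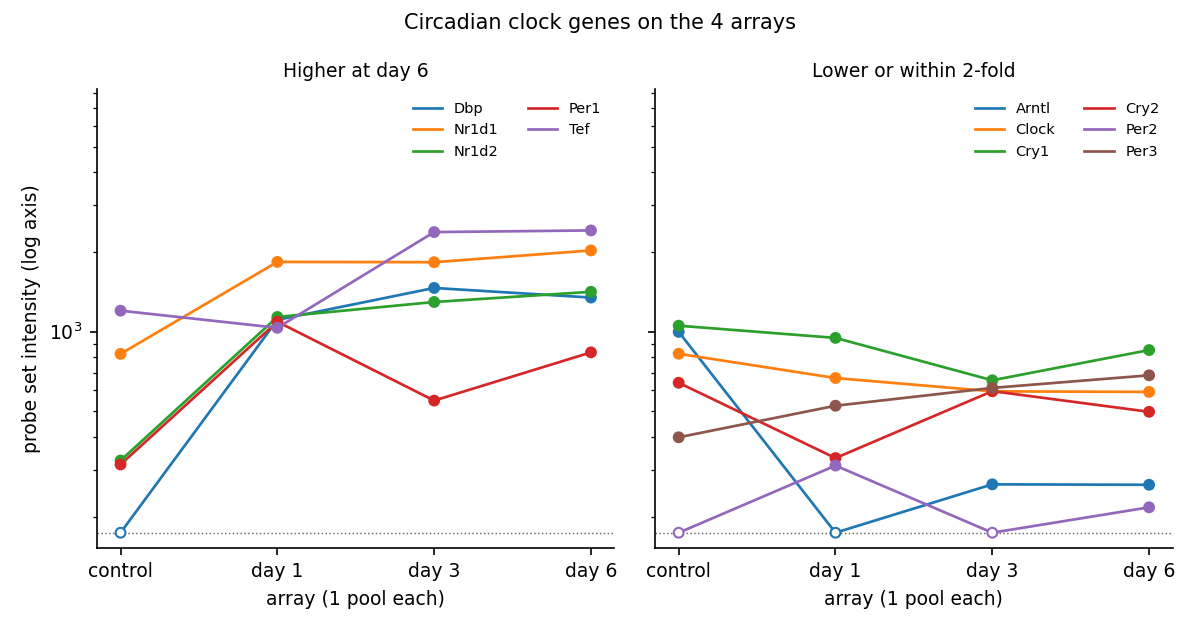
Intensities (log axis) of clock genes on the 4 arrays, 1 pool each, with open points for values below the floor of 174 (dotted line). Dbp, Nr1d1 and Nr1d2 are above their control value on each treated array and Arntl is below it.

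Macrophage genes were near control by day 6. Of 34 macrophage and myeloid genes above the floor 2 rose, against 1.84% of all genes above the floor, and 0 fell, with a median of 0.21, and the list's summed intensity was 93286 in control, 213448 at day 1, 207452 at day 3 and 111295 at day 6. Mpeg1, a pore-forming protein of macrophages, went from 1660 to 4219, or 2.54-fold, after 14142 and 10718, and Cd52, a leukocyte surface protein, from 2505 to 5385, or 2.15-fold. The macrophage markers Cd68, at 1912 and 2867, and Adgre1, at 692 and 1013, were within 2-fold, with Csf1r at 3920 and 3532. Of the 34 members, 20 had a log2 change above 0 and 14 below. Among the lower ones, Fcgr3, Ccr2 and Mrc1 had log2 changes of -0.70, -0.64 and -0.61. The part of these cells in the other changes was not tested.

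The list of lipid-laden macrophage genes held a larger rise. Mmp12, the macrophage metalloelastase, went from 859 through 1228 and 1366 to 5620, which is 6.54-fold, with a second probe set at 512 and 3197. Unlike Mpeg1, it was highest at day 6. In this list 4 of 30 rose (Mmp12, Lipa, Fabp5 and Apoc1), against 1.84% of all genes above the floor, and 0 fell, with a median of 0.14. Lysosomal members such as Lamp1, at 19255 and 17720, and cathepsin B (Ctsb), at 25101 and 27715, were within 2-fold.

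Apoc1, a protein of lipoprotein particles, rose from 12098 to 28055, or 2.32-fold, after 4310 and 15695. Apoc4, next to it on the chromosome, rose from 23 to 611 (at least 3.51-fold). Apoc2, an activator of lipoprotein lipase that lies beyond Apoc4 and the predicted gene Gm44805, rose from 411 to 1259 (3.06-fold). Apoe, next to Apoc1 on its other side, was at 60882 and 61723.

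Of 44 acute phase and inflammation genes measured, 24 were above the floor. Of these 4 were past 2-fold higher and 1 lower, against 1.84% and 1.72% of all genes above the floor. The median was -0.07. The chemokine Ccl8, which draws monocytes, went from 1292 to 4946, or 3.83-fold, after 4283 and 6019. Saa2, an acute phase protein, went from below the floor to 494 (at least 2.84-fold), and Saa3, its fat tissue relative, from 889 to 2016 (2.27-fold). The adhesion molecule Vcam1 went from 396 to 1037, or 2.62-fold. Of its dimmer probe sets, one was at 187 and 237, within 2-fold, and the next at 193 and 401. Lcn2 was the member that fell. Haptoglobin (Hp) was at 53769 and 33716.

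Of the other immune lists, T and NK cell genes had 4 of 20 above the floor, with the T cell receptor genes Cd3d and Cd3e below it, and B cell and plasma cell genes had 0 of 12 past 2-fold. Interferon response and MHC antigen presentation genes had 0 of 23 and 0 of 18 past 2-fold. The mast cell and granulocyte list had 0 rises and 2 falls among 14 members, against 1.72% of all genes lower, with 10 above 0, 3 below and a median of 0.21. Cma1, a mast cell chymase, and S100a8, a neutrophil protein, had log2 changes of 0.69 and 0.64. Prtn3, a neutrophil protease, fell from 756 to 153, at least 4.34-fold, and Mmp9, another, fell at least 2.03-fold. S100a9 was below the floor on both arrays.

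Among supporting cells, medians were below 0 for smooth muscle and pericyte, mesothelium and epithelium, fibroblast and preadipocyte, and endothelial genes. Nerve and Schwann cell genes went the other way, with a median of 0.27. Of these 11 genes, 8 were above 0 and 3 below, with 1 rise and 0 falls. The 16 smooth muscle and pericyte genes had 2 falls and 0 rises and a median of -0.60, the lowest of the 50 lists, and 13 of 16 were below 0. Over all genes above the floor 1.72% were lower and 50.5% below 0. Myh11, the smooth muscle myosin, went from 2383 to 1025, or 2.32-fold, and Actg2, a smooth muscle actin, from 2916 to 1238, or 2.36-fold. Acta2, at 4847 and 2514, and Mylk, at 8589 and 4645, stayed inside 2-fold. Acta1, the skeletal muscle actin, fell from 1491 to 168, at least 8.57-fold, after 2381 and 212. It was the 1 of 15 skeletal muscle genes above the floor to fall, against 1.72% of all genes above the floor. That list had a median of 0.10, with 8 members above 0 and 7 below. Its members Myl1, at 3862 and 3645, and Pvalb, at 1896 and 2039, were level. The muscle markers Ckm and Tnnt3 were below the floor on both arrays.

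Mesothelial genes, from the lining of the fat pad, fell in part. Of 12 mesothelium and epithelium genes 3 fell and 1 rose, against 1.72% and 1.84% of all genes above the floor. The median was -0.32, with 4 above 0 and 8 below. Upk3b went from 5351 to 2376 (2.25-fold), Krt19 from 1470 to 610 (2.41-fold) and Msln from 411 to below the floor (at least 2.36-fold), while the epithelial junction gene Cldn3 rose from 288 to 698. Among 25 endothelial genes 2 fell, against 1.72% of all genes above the floor, and 0 rose. Their median was -0.14, with 10 above 0 and 15 below. Thrombomodulin (Thbd), an anticoagulant receptor of vessels, went from 3949 through 3412 and 714 to 783, or 5.04-fold, with its other probe set at 3146 and 1177, and Flt4, a receptor of lymphatic vessels, fell at least 2.75-fold. The vessel markers Cdh5, at 4204 and 5156, and Pecam1, at 421 and 325, were within 2-fold.

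**Figure D5:**
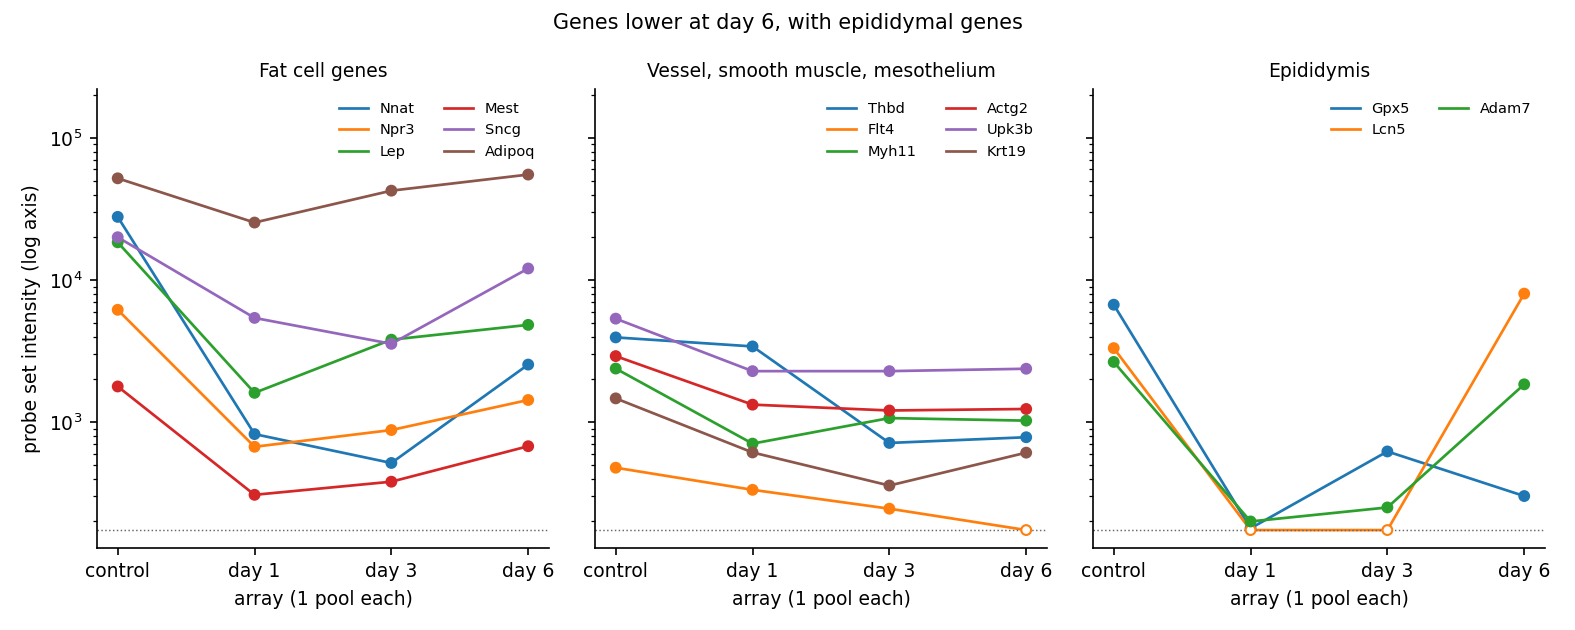
Intensities (log axis) of fat cell genes, of vessel, smooth muscle and mesothelial genes, and of epididymal genes on the 4 arrays, 1 pool each, with open points for values below the floor of 174 (dotted line). Nnat is at 27843 in control and 2542 at day 6, Adipoq stays between 25397 and 55270, and Gpx5 and Lcn5 part at day 6.

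Collagen and matrix genes had 1 rise and 2 falls of 36 and a median of -0.23, with 26 below 0. Over all genes above the floor 1.84% were higher, 1.72% lower and 50.5% below 0. Periostin (Postn), a matrix protein of remodelling tissue, rose from 1669 to 3804, or 2.28-fold, after 3538 and 6033. Lamb2, a laminin chain, fell 2.17-fold and Fmod, a small proteoglycan, 2.01-fold. The bright collagens Col3a1, at 12582 and 12141, and Col1a1, at 6733 and 6374, were level. Of the metalloproteinases, Mmp7 rose 2.24-fold, Adam12 at least 2.21-fold and Adam8, a leukocyte protease, at least 2.67-fold. Gpx3, a secreted peroxidase of plasma, fell from 34235 to 16121, or 2.12-fold, while the heme-degrading enzyme Hmox1 rose from 2512 to 5061, or 2.01-fold, after 16644 and 8953.

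The cell cycle and DNA replication list had 3 rises among 38 members, against 1.84% of all genes above the floor, and 0 falls. Its median was 0.24, with 26 members above 0 and 12 below. Ccnb2, a cyclin of mitosis, went from 653 to 1375, or 2.11-fold, after 523 and 1768. The spindle checkpoint gene Mad2l1 rose 2.03-fold and the spindle protein Nusap1 at least 2.16-fold. Kif22 and Stmn1 were at log2 changes of 0.95 and 0.94, and the mitotic kinase Plk1 and the cell cycle inhibitor Cdkn1a at -0.85 and -0.79. Cks2, a small partner of cell cycle kinases that is on no list, rose at least 3.38-fold, to 588.

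Protein folding and splicing genes leaned lower, mostly within 2-fold. Of 29 chaperone and heat shock genes, 24 were below 0, against 50.5% of all genes above the floor, with a median of -0.39. Of these 29, 1 fell, the small heat shock protein Cryab (2.07-fold), against 1.72% of all genes above the floor. The endoplasmic reticulum chaperone Hspa5 was at 8535 and 6004. Of 25 splicing factors, 20 were below 0, with a median of -0.32, and Snrpd3, a core spliceosome protein, fell from 1059 to 227, or 4.67-fold. Ribosomal protein genes had a median of -0.18, and 0 of the 23 passed 2-fold.

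Several of the largest changes were in genes outside these groups. H1f10 was the 1 of 18 histone and chromatin genes to rise, against 1.84% of all genes above the floor. Tyms-ps, a thymidylate synthase pseudogene by the name of its probe set, went from 861 to 4940 (5.74-fold), and H1f10, a linker histone, from 581 to 3270 (5.63-fold). Both had read lower than control at day 1, at 243 and 196. A pseudogene probe set may take signal from the parent gene. Cmtm6, a membrane protein, fell from 1625 to 299, or 5.43-fold, and Eepd1 from 3495 to 838, or 4.17-fold. The chemokine scavenger Ackr3 fell 3.89-fold, the stress gene Gadd45a 3.63-fold, the prostaglandin-degrading enzyme Hpgd 3.37-fold and the transcription repressor Bcl6 3.25-fold. The α-tubulin Tuba1a fell from 32893 to 10234, or 3.21-fold, with its second probe set at 34968 and 9754, though probe sets of close tubulin paralogs may share signal.

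By the same rule 473 genes were higher (5.73%) and 521 lower (6.31%) at day 1, and 238 (2.88%) and 204 (2.47%) at day 3. On these arrays, which are read against the same control, genes higher at day 6 had median log2 changes of 0.36 and 1.13, beside 1.22 at day 6. For the 102 genes lower at day 6 these were -1.08, -1.21 and -1.24. All 3 comparisons share the control array on which the genes were chosen, so these values are not independent of one another.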

How the data were processed

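Each of 4 Affymetrix mouse arrays was hybridized with 1 pool of epididymal fat RNA, per the labels. The deposited file holds an intensity for each probe set on a linear scale. The software, background step and normalization the authors used were not given in the sources used here. About 12.2% of values were at or below 0, and the 4 columns share nearly the same quantiles, so every change is relative to a common distribution. The 66 control probe sets were left out, values were floored at the 40th percentile of all 4 columns, and log2 ratios were taken with Python 3.11.15 and pandas 2.3.3. No further scaling was applied. Of 12422 probe sets, 10833 had 1 symbol in the array's annotation, 396 several and 1193 were not listed there. Only those with 1 symbol were named, each gene by its probe set with the highest mean over the 4 arrays; 10817 matched the GRCm38.p6 RefSeq gene table.

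With 1 array a group no test was run, so precision rests on how few arrays there are. The 50 gene lists, the comparison and the naming rule were chosen with earlier results of these data known. The rule named the 25 greatest increases and the 25 greatest decreases among genes at least 2 times the floor on the brighter array, up to 6 changed and 3 brightest members per list, and 55 genes whatever their values, 45 of them measured. Genes named outside it, the E-box and D-box searches and the gene families at the end were chosen after values were seen. A list's median is over members above the floor on control or day 6. Alternatives were other floors, scalings, probe set rules and member sets. The calling step was tested on simulated data, with changes well past 2-fold planted in probe sets well above the floor. True changes near 2-fold or near the floor were not simulated.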

Additional observations from a re-analysis of the deposited data

Results flagged for a closer look

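Some genes passed 2-fold in opposite directions on different treated days against the same control array. With 1 array a day the difference was not tested, and these comparisons share the control. Eci1 had a log2 change of 1.01 at day 6 and -1.02 at day 1, Slc25a10 1.17 and -1.42, Apoc1 1.21 and -1.49, H1f10 2.49 and -1.57, and Tyms-ps 2.52 and -1.83. Lcn5 stood at 1.27 at day 6 and at -4.25 on both day 1 and day 3, its values on those days being below the floor. Lcn2, at -1.81 against 1.43 at day 1, and Mmp9, at -1.02 against 3.65, went from higher to lower.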

How the results depend on the processing

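The counts at day 6 depend on the floor. Against 158 probe sets higher and 146 lower, a floor at the 25th percentile (58 intensity units) gave 441 and 414, one of 100 units gave 273 and 253, and one at the 60th percentile (537 units) gave 81 and 71. A lower floor lets changes between dim values through. Scaling to a trimmed mean, quantile normalization, centring and counting genes kept both counts within 1.5 times. Of 97 named genes past 2-fold, 34 came under 2-fold with the 60th percentile floor, 6 with the mean over probe sets and 1 with centring, and 0 changed sign under any of these or the 4 other settings. A floor cannot reverse the sign of a probe set's change, so the signs kept under other floors are no check. The columns were already matched, with scale factors of 0.998 to 1.001 and a median log2 change of -0.008. Scaling, quantile normalization and centring could therefore change little. Of 50 list medians, 4 changed sign with the 60th percentile floor, 5 with the mean over probe sets, 1 with each lower floor and 0 with the scalings or centring. Of 14 lists with medians past 0.3 in size, 1 turned with the 60th percentile floor and 3 (brown and beige, mesothelium, epididymis) were 0 over all measured members. With the 60th percentile floor the median turned from 0.17 to -0.088 for glycerol supply and triglyceride synthesis and from 0.34 to -0.04 for epididymis, testis and germ cells. No paired analysis was possible because each group has 1 array. Precision is limited by the single pool per group and, near the floor, by low signal.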

Other observations

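Families looked at after their members' values were seen gave further values. Of 16 Hox genes above the floor, transcription factors that keep the position of a cell along the body, 3 fell and 0 rose at day 6, and 13 had a log2 change below 0, with a median of -0.28. Over all genes above the floor 1.72% were lower and 50.5% below 0. Hoxa7 went from 626 to 242, Hoxc5 from 613 to 237 and Hoxc9 from 667 to 302, while the brightest, Hoxa4, was at 5063 and 5630. Of 10 tubulin genes 2 fell, Tuba1a and its close paralog Tuba1c, from 38483 to 16016, whose probe sets may share signal, and the median was -0.38. Tubb2a and Tubb5 were at 4632 and 2608 and at 8134 and 6052.

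Genes on no list included Retsat, which reduces retinol, from 1955 to 4797, Tst, a mitochondrial sulfur transferase, from 2868 to 7207, and Apmap, a fat cell membrane protein, from 2067 to 5604. Reep6 went from 2191 to 6018, after 525 and 5458. Lower were Hsd11b1, which reactivates glucocorticoid, from 6172 to 3054, the thyrotropin receptor Tshr, from 2905 to 1128, and the Wnt receptor Fzd4, from 11461 to 4981. Of the 109 higher genes 51 stand on a list, and of the 102 lower genes 24. The share of all measured genes that stand on a list was not computed, and the lists were chosen with earlier results known. These counts therefore describe only what the lists cover.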
